A study of Mus musculus with 4 samples.

Results

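Tecr, Hsd17b12, Hacd3 and Elovl5 encode 4 enzymes of the cycle that lengthens very-long-chain fatty acids, and their transcripts were followed across the cell classes of the embryonic mouse brain. They are 4 of the 27998 genes of the Illumina tables, and 12 of the 31986 isoforms of the Nanopore tables belong to them. All 12 isoforms had at least 1 unique molecular identifier (UMI, a tag that marks 1 captured RNA molecule) in the cells kept. Cells were dissociated from the pooled cortex, hippocampus and sub ventricular zone of 1 C57BL/6 mouse at embryonic day 18, with no treatment given in the labels, captured on the 10x Genomics Chromium system, and sequenced both as short Illumina reads, which count UMIs per gene, and as long Nanopore reads, which assign UMIs to isoforms. A single emulsion was split into an aliquot of 190 cells and one of 951 cells, so the aliquots are technical replicates and every p-value below measures only the spread between them, since a single animal was sampled.

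Elongation takes place at the endoplasmic reticulum membrane, where each round adds a pair of carbons to an acyl-CoA. An ELOVL enzyme condenses the acyl-CoA with malonyl-CoA, HSD17B12 reduces the resulting ketone, a HACD enzyme removes water, and TECR reduces the remaining double bond to complete the round. The products go into membrane phospholipids, sphingolipids and myelin lipids, and brain is among the tissues richest in them. ELOVL5 acts mainly on polyunsaturated chains, whereas HSD17B12, HACD3 and TECR serve rounds started by any ELOVL.

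After removal of cells with fewer than 1400 detected genes, 186 and 935 cells remained, with 1809081 and 8295650 Illumina UMIs and 993220 and 4889148 Nanopore UMIs. Clustering without the genes of any lipid list gave 10 clusters, of which 9 could be named from marker genes into 8 classes and 1, of 87 cells, stayed unnamed. The smallest class in the tests, radial glia-like cells, held 13 and 56 cells, the largest, mature glutamatergic-like neurons, held 43 and 238, and Cajal-Retzius-like cells, with 4 and 13, were described but not tested. The 2 aliquots shared 13 cell barcodes, and leaving those cells out changed no call of the 4 members against radial glia-like cells. All 14 radial glia markers were raised in the radial glia-like cluster. Of the 12 mature glutamatergic markers, 5 were raised in 1 mature glutamatergic-like cluster (143 cells, mean log2 fold 0.214) and 9 in the other (138 cells, 1.179). The unnamed cluster had 5 of 9 immature glutamatergic markers raised (mean log2 fold 0.488). The class called cycling radial glia-like was named from cell cycle genes alone. It held the 14 radial glia markers at 2647 and 2328 CPM in sum, near the 2347 and 2423 of intermediate progenitor-like cells and below the 17557 and 20070 of radial glia-like cells. Its 13 immature GABAergic markers stood at 1852 and 2064 CPM, against 1138 and 1213 in intermediate progenitor-like cells and 1812 and 1596 in immature glutamatergic-like neurons. Its 5 oligodendrocyte precursor markers had the highest sums (135 and 162 CPM, against at most 118 in any other named class). The radial glia-like class also held the highest summed level of the 5 astrocyte markers (94.3 and 121 CPM, against at most 26.3 in any other class). The same was true of the 4 pericyte markers in the 951-cell aliquot (133 CPM, against at most 47.9 elsewhere). CPM are UMI counts scaled to a sum of 1000000 per class and aliquot. Of the 69 radial glia-like cells, 4 carried at least 3 markers of such another type, and every comparison with radial glia-like cells was also run without them. Median Illumina UMIs per cell ran from 4858 in mature GABAergic-like neurons of the 951-cell aliquot to 13128 in mature glutamatergic-like neurons of the 190-cell aliquot, and the part of this depth in the differences below was not tested.

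Tecr lies on chromosome 8 (83571698 to 83607971, minus strand, GRCm38). Of its 3372 Nanopore UMIs, 1671 (49.6%) belonged to Tecr-201 and 1655 (49.1%) to Tecr-203, both protein coding. The next isoform, Tecr-214, held 31. The 2 main isoforms differ in their coding sequence by 1 cassette exon of 45 bases, exon 4 of the 13 exons of Tecr-201, at chr8:83573411-83573455. The exon is coding, 15 codons long, holds no in-frame stop codon and leaves the reading frame intact, so Tecr-201 encodes 308 codons and Tecr-203 encodes 293. Its GC content is 71.1%. The junctions are shown because every isoform share below rests on this exon. They are read 5′ to 3′ from the Gencode transcripts, with the exon in capitals and 15 flanking bases on each side in lower case.
Tecr-201: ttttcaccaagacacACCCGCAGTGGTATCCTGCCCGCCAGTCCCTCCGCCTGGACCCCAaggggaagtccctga
Tecr-203: ttttcaccaagacacaggggaagtccctga

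Tecr was chosen by its isoform mixture in single cells, measured in these same Nanopore tables, so its isoform shares are given as a description, without a test. Shares with the exon are taken over the UMIs of Tecr-201 plus Tecr-203. Intervals are 95% Clopper-Pearson intervals, which cover no error but that of counting. The cassette exon was present in most Tecr molecules of radial glia-like cells and in a minority of those of mature neurons. In radial glia-like cells 82.1% of 39 UMIs in the 190-cell aliquot and 85.3% of 266 UMIs in the 951-cell aliquot carried it. Mature glutamatergic-like neurons carried it in 39.6% of 212 and 38.0% of 1009 UMIs. In mature GABAergic-like neurons it was present in 34.6% of 26 and 34.3% of 242 UMIs. Both aliquots of the radial glia-like class lay above both aliquots of every other class.

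The progenitor classes lay above all neuronal classes in both aliquots. Cycling radial glia-like cells included the exon in 71.4% and 71.7% of the UMIs of these isoforms. Intermediate progenitor-like cells, the transit progenitors of glutamatergic neurons, included it in 64.0% and 71.0%. In immature glutamatergic-like neurons the shares were 55.1% and 53.2%. Immature GABAergic-like neurons had 41.5% and 43.6%, and Cajal-Retzius-like cells, early-born neurons of the marginal zone, had 38.9% and 39.4%. The intervals of the summed aliquots leave out the spread between cells and between aliquots, so their overlap is a description and no test. Summed over both aliquots, the interval of radial glia-like cells (84.9%, 80.4 to 88.7) did not meet that of cycling radial glia-like cells (71.7%, 66.4 to 76.5). The latter overlapped that of intermediate progenitor-like cells (70.1%, 63.3 to 76.4), which ended above that of immature glutamatergic-like neurons (53.5%, 48.1 to 58.9). From there on each class overlapped the next: the unnamed cluster (46.7%, 41.3 to 52.2), immature GABAergic-like (43.2%, 37.3 to 49.2), Cajal-Retzius-like (39.2%, 25.8 to 53.9), mature glutamatergic-like (38.2%, 35.5 to 41.0) and mature GABAergic-like cells (34.3%, 28.7 to 40.3).

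**Figure D1:**
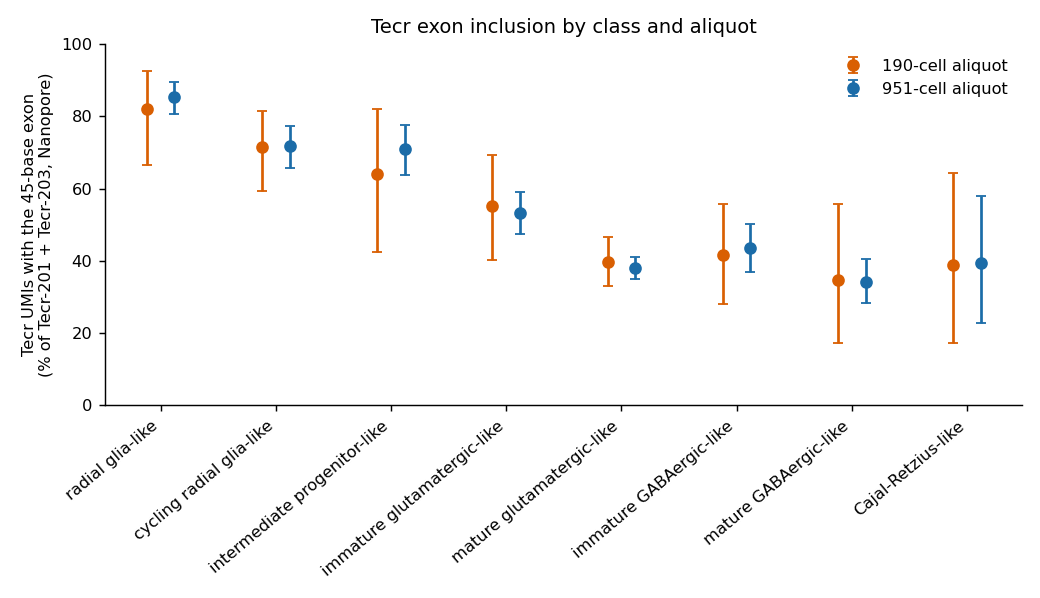
Share of Nanopore UMIs of Tecr-201 plus Tecr-203 that carried the cassette exon (y axis, percent) in each class (x axis), with 1 point per aliquot and exact 95% binomial intervals. Radial glia-like cells sit at 82.1% and 85.3%, and mature glutamatergic-like and mature GABAergic-like neurons between 34.3% and 39.6%.

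The 2 clusters behind the mature glutamatergic-like class differed little. One held the exon in 44.2% and 34.8% of the UMIs of Tecr-201 plus Tecr-203 and the other in 36.5% and 40.8%, so their aliquots interleaved. In the unnamed cluster, by contrast, the aliquots themselves lay apart, at 56.9% of 51 and 44.9% of 285 UMIs. A finer clustering left unnamed a cluster of 70 cells led by Crym, Nrp2 and Slit3, genes that also led 1 of the 2 mature glutamatergic-like clusters. Mature glutamatergic-like neurons then had a share of 33.5%, which stayed below every progenitor class. The part of those 70 cells in this change was not tested.

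Levels separated the behaviour of the 2 isoforms. Tecr-203, without the exon, stood at 70.0 and 77.1 Nanopore CPM in radial glia-like cells, 113 and 119 in cycling radial glia-like cells, and 272 and 264 in immature glutamatergic-like neurons. It reached 427 and 392 in mature glutamatergic-like and 326 and 453 in mature GABAergic-like neurons. Every neuronal class thus lay above every progenitor class in both aliquots. Tecr-201, with the exon, had 320 and 449 CPM in radial glia-like cells against 280 and 240 in mature glutamatergic-like and 173 and 236 in mature GABAergic-like neurons. Its levels in cycling radial glia-like cells (282 and 301) and immature glutamatergic-like neurons (334 and 301) were near each other. The spread of Tecr-203 across the classes was therefore wider than that of Tecr-201.

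**Figure D2:**
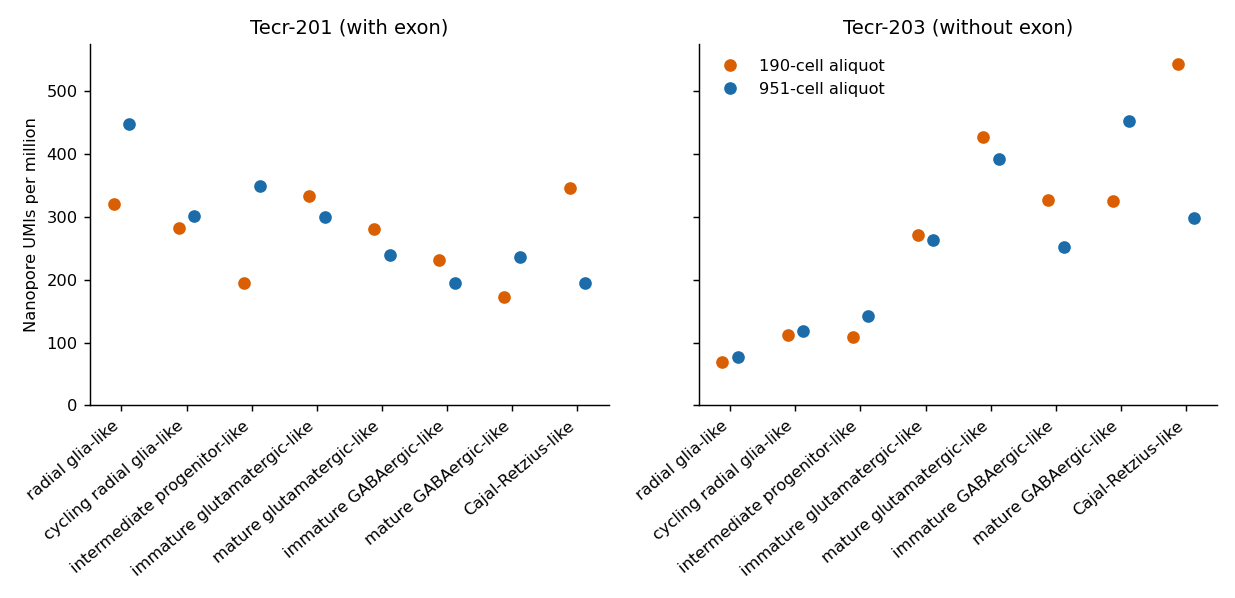
Nanopore CPM (y axis, UMIs scaled as above) of Tecr-201 (left) and Tecr-203 (right) by class, 1 point per aliquot. Tecr-203 runs from 70.0 in radial glia-like cells to 427 in mature glutamatergic-like neurons. In Cajal-Retzius-like cells it stands at 543 in the 190-cell aliquot (11 UMIs in 4 cells) and at 299 in the 951-cell aliquot. Tecr-201 stays between 173 and 449 in these classes and the GABAergic-like ones.

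In single cells both isoforms were detected together. Tecr had a Nanopore UMI in 974 of the 1121 cells, and 34 cells had at least 10. All 34 had at least 1 UMI of each of Tecr-201 and Tecr-203, and the share with the exon ran from 9.09% to 95.8% with a median of 45.5%. The more abundant isoform of a cell took a median of 68.3% of its UMIs of Tecr-201 plus Tecr-203. The 5 radial glia-like cells among them, all from the 951-cell aliquot, ranged from 76.9% to 95.8%. The 20 mature glutamatergic-like neurons ranged from 9.09% to 63.6%, so these cells did not overlap at this minimum. With 10 to 33 UMIs per cell, a share in 1 cell is imprecise. The less abundant isoform rested on 1 UMI in 3 of the 34 cells, on at least 2 in 31 and on at least 3 in 24. Tecr was found in every class, so no class gives its background level from free RNA. Erythroid transcripts, which neural cells should lack, stood at 446 to 790 CPM in every named class. They had a median of 11.5 Illumina UMIs in these 34 cells, all of which held at least 1. Over all 1121 cells the median was 4, and 96.8% of the cells held at least 1. The part of free RNA in the detection of both isoforms was not tested. At a minimum of 5 UMIs, 211 of 245 cells had both isoforms, 19 had only Tecr-201 and 15 only Tecr-203. The shares with the exon then overlapped. They ran from 33.3% to 100% in 25 radial glia-like cells (median 85.7%) and from 0% to 100% in 127 mature glutamatergic-like neurons (median 37.5%).

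**Figure D3:**
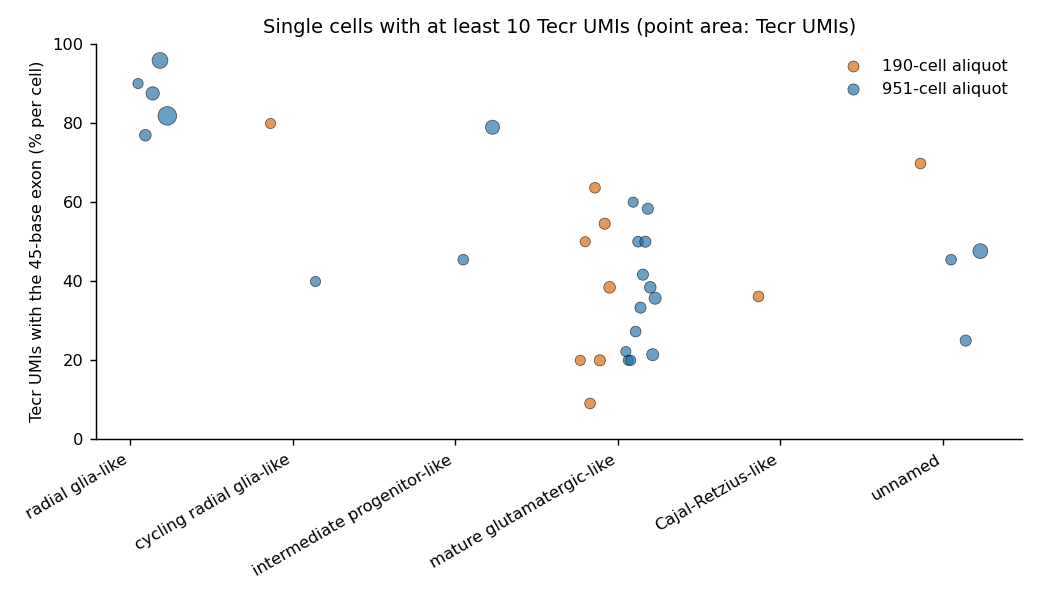
Share of Tecr-201 plus Tecr-203 UMIs with the cassette exon (y axis, percent) by class (x axis). Points are the 34 cells with at least 10 Tecr UMIs, coloured by aliquot, with area proportional to the cell's Tecr UMIs. The 5 radial glia-like cells lie at 76.9% or above, and the 20 mature glutamatergic-like neurons at 63.6% or below.

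The total level of Tecr differed less between classes than the level of Tecr-203. The Illumina tables held 4007 Tecr UMIs. Radial glia-like cells had 327 and 369 CPM, cycling radial glia-like cells 306 and 306, mature glutamatergic-like neurons 488 and 442, and mature GABAergic-like neurons 301 and 461. The values of mature glutamatergic-like neurons lay above those of radial glia-like cells, and the log2 fold change between them was 0.46 (SE 0.21, edgeR adjusted p = 0.0981), which did not pass the threshold of 0.05. With the aliquot as a block the fold change was 0.43 and the edgeR adjusted p was 0.0043. Without the minimum of genes per cell it was 0.59 with an edgeR adjusted p of 0.0103, whereas the DESeq2 adjusted p was 0.375. Without that minimum all 1141 barcodes were clustered anew, and the radial glia-like class held 106 cells in place of 69. The part of this regrouping in the value was not tested. In mature GABAergic-like against radial glia-like cells the aliquots overlapped (log2 fold change 0.12, SE 0.22, edgeR adjusted p = 0.744).

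Elovl5, the condensing enzyme, was sparse, with 167 Illumina UMIs in all, and highest in radial glia-like cells by the mean of the 2 aliquots. The gene lies on chromosome 9 (77917364 to 77984519, plus strand, GRCm38). Its level there was 49.9 and 35.9 CPM (9 and 31 UMIs), against 7.37 and 15.1 in mature glutamatergic-like neurons (4 and 41 UMIs). Mature GABAergic-like neurons had 31.1 and 4.94 CPM, from 3 UMIs in each aliquot. Elovl5 fell in mature glutamatergic-like neurons (log2 fold change -1.58, SE 0.49, edgeR adjusted p = 0.00993) and in mature GABAergic-like neurons (-2.14, SE 0.68, edgeR adjusted p = 0.014). Both neuronal classes lay below both radial glia-like aliquots. DESeq2 made neither call (adjusted p = 0.124 and 0.179). Without the 951-cell sum of mature GABAergic-like neurons the second difference was -0.655 (edgeR adjusted p = 0.685), and without the 190-cell sum of mature glutamatergic-like neurons the first was -1.29 (edgeR adjusted p = 0.0685). Without the 951-cell sum of radial glia-like cells the first was -1.81 (edgeR adjusted p = 0.0785). In the 190-cell aliquot no Elovl5 UMI was found in Cajal-Retzius-like cells, which allows up to 70.9 CPM at the floor of 3 counts. In the 951-cell aliquot these cells had 55.8 CPM (7 UMIs), above both radial glia-like values. Summed over both aliquots they had 41.8 CPM (7 UMIs in 17 cells), against 38.4 in radial glia-like cells. Cycling radial glia-like cells, at 16.1 and 10.1 CPM, lay below both aliquots of the radial glia-like class. So did intermediate progenitor-like cells, at 6.575 and 14.957 CPM, near the values of mature glutamatergic-like neurons. The lower level was thus not limited to mature neurons, and these progenitor pairs were not tested.

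Hsd17b12, the ketoacyl reductase, fell in both classes of mature neurons. The gene lies on chromosome 2 (94032689 to 94157964, minus strand, GRCm38). It had 139 and 160 CPM in radial glia-like cells, 103 and 76.9 in mature glutamatergic-like neurons, and 72.6 and 69.1 in mature GABAergic-like neurons, out of 863 Illumina UMIs in all. The radial glia-like aliquots lay above both mature classes. The log2 fold change was -0.77 (SE 0.25, edgeR adjusted p = 0.0166) in mature glutamatergic-like and -1.18 (SE 0.31, edgeR adjusted p = 0.00323) in mature GABAergic-like neurons. DESeq2 gave similar fold changes, -0.79 and -1.22, with adjusted p-values of 0.232 and 0.0693, so neither call held under it. The calls were also lost without the 951-cell sum of radial glia-like cells (-0.56 and -0.99, edgeR adjusted p = 0.371 and 0.113), of mature glutamatergic-like neurons (-0.52, edgeR adjusted p = 0.287) or of mature GABAergic-like neurons (-1.37, edgeR adjusted p = 0.0959). Without the 10 cells that carried markers of other types the differences were -0.80 and -1.25 (edgeR adjusted p = 0.0124 and 0.00162). Cycling radial glia-like cells, at 70.8 and 61.5 CPM, lay below both aliquots of the radial glia-like class as well. This pair was not tested.

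Hacd3, a dehydratase of the third step, gave no call in any comparison. The gene lies on chromosome 9 (64986983 to 65021693, minus strand, GRCm38). Its 372 Illumina UMIs gave 16.6 and 35.9 CPM in radial glia-like cells, 47.9 and 40.5 in mature glutamatergic-like neurons and 31.1 and 49.4 in mature GABAergic-like neurons. The log2 fold changes against radial glia-like cells were 0.53 (SE 0.40, edgeR adjusted p = 0.34) and 0.50 (SE 0.46, edgeR adjusted p = 0.452). When the classes and the unnamed cluster were ordered by mean level, the aliquots of each overlapped those of the next for Hacd3 and for Elovl5. For Tecr the only neighbours apart were radial glia-like and cycling radial glia-like cells. For Hsd17b12 the immature glutamatergic-like neurons, at 85.3 and 83.8 CPM, lay apart from the unnamed cluster above (86.6 and 89.1) and mature GABAergic-like neurons below. They lay within the range of mature glutamatergic-like neurons (76.9 to 103 CPM).

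**Figure D4:**
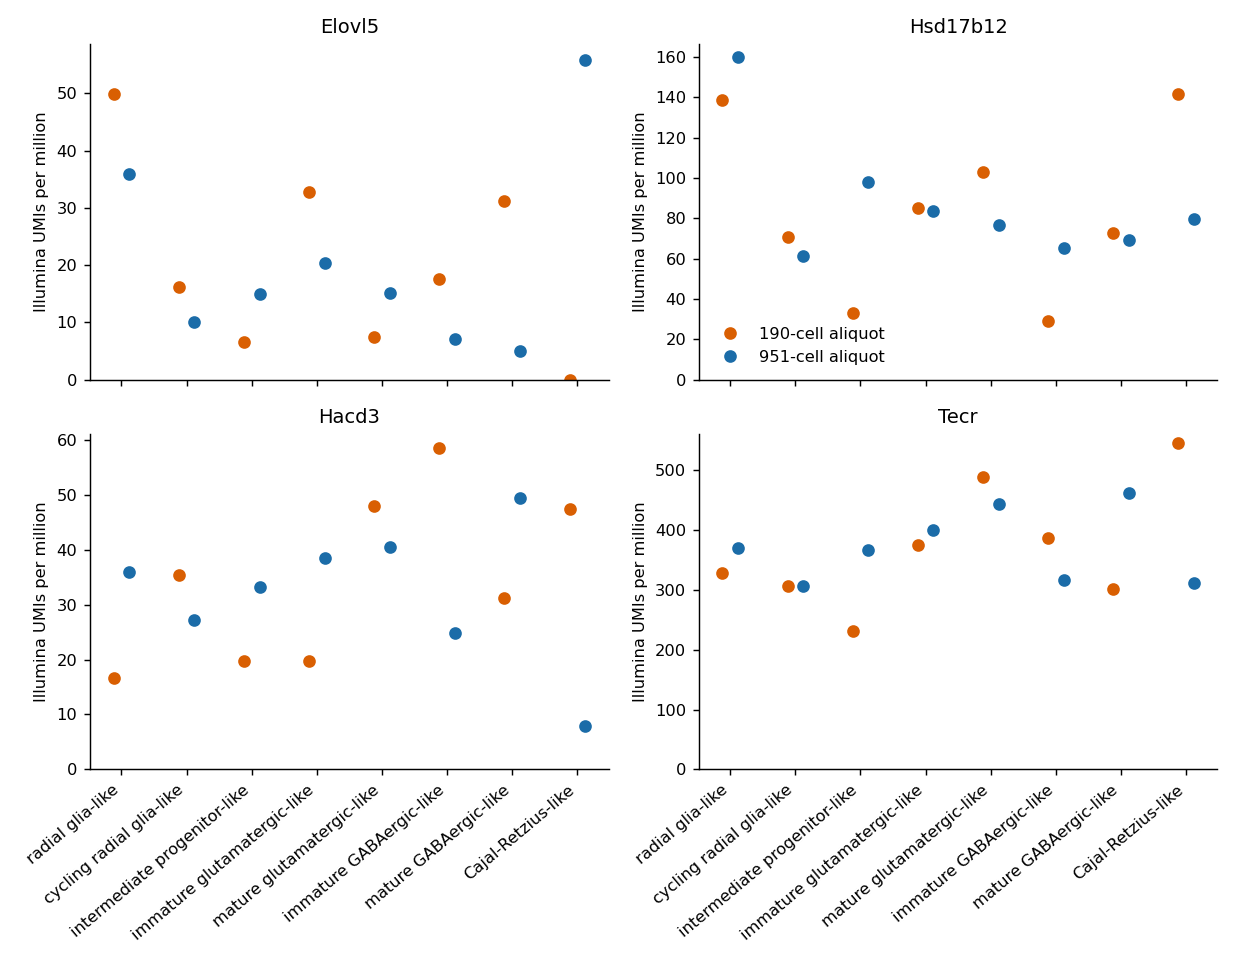
Illumina CPM (y axis, from 0, on a separate scale for each gene) of Elovl5, Hsd17b12, Hacd3 and Tecr in each class, 1 point per aliquot. Hsd17b12 is at 139 and 160 in radial glia-like cells and at 69.1 to 103 in mature neurons, while Tecr lies between 301 and 488 in the same classes.

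These calls are read against a large background. Against radial glia-like cells, 2845 of 8629 genes passed the threshold in mature glutamatergic-like neurons (33%, or 24.9% of the genes not used for clustering), and 2616 did in mature GABAergic-like neurons (30.3%, or 22.8%). All 4 members passed the filter on low counts, and 2 of the 4 were called in each comparison, both lower in neurons, where 16.5% and 16% of all genes were called lower. The median log2 fold change over all genes was near 0 in both (-0.0044 and -0.0198). The radial glia-like sums are shared by both comparisons, so their fold changes are not independent. The share of all genes whose aliquots lay apart between classes was not counted, so the separations given above for Tecr, Elovl5 and Hsd17b12 are descriptions.

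No member was called between the mature and immature classes of either neuron type. Maturation and lineage below name these contrasts only. The immature GABAergic-like class was led by Ebf1, Isl1 and Zfhx3, and the mature one by Maf, Nxph1 and Npy. The part of cell type in that contrast was not tested. In mature against immature glutamatergic-like neurons (4.06% of genes called, or 962 genes in place of 350 with the aliquot as a block) the log2 fold changes were 0.34 for Tecr, 0.11 for Hsd17b12, 0.41 for Hacd3 and -0.78 for Elovl5, with edgeR adjusted p-values from 0.531 to 0.943. In mature against immature GABAergic-like neurons (2.53% called, 499 genes in place of 218 with the block) they were 0.09, 0.21, 0.34 and -0.10. The 2 mature classes differed by -0.34, -0.41, -0.03 and -0.56, GABAergic-like minus glutamatergic-like (8.4% called, 1226 genes in place of 725 with the block). The test of whether maturation differed between the lineages (2.23% called, 486 genes in place of 192 with the block) gave edgeR adjusted p-values from 0.9 to 1 for the members. In both lineages 0 of the 9 elongation genes tested reached an unadjusted p under 0.05, and DESeq2 called 0.

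Of the 14 genes of the elongation list 9 passed the filter, and the sole non-member called was Elovl4, which makes the longest chains of the pathway. It rose from 16.6 and 10.4 CPM in radial glia-like cells to 55.3 and 23.9 in mature glutamatergic-like neurons (log2 fold change 1.61, SE 0.51, edgeR adjusted p = 0.0114, DESeq2 adjusted p = 0.144) and to 72.6 and 41.1 in mature GABAergic-like neurons (1.96, SE 0.55, edgeR adjusted p = 0.0054, DESeq2 adjusted p = 0.0786). Both calls were lost without the 951-cell sum of radial glia-like cells (1.18 and 1.51, edgeR adjusted p = 0.449 and 0.222), and the first also without the 190-cell sum of mature glutamatergic-like neurons (1.12, edgeR adjusted p = 0.163). Within the list the edgeR log2 fold changes of the condensing enzymes Elovl4 and Elovl5 thus had opposite signs in both comparisons, with no call of either gene under DESeq2. The difference between these genes was not tested. With the aliquot as a block 5 elongation genes were called in the glutamatergic comparison in place of 3, Tecr and Elovl2 (edgeR adjusted p = 0.0419) being added. Elovl6 (476 UMIs), Hacd1 (338 UMIs), Elovl2 (134 UMIs) and Hacd2 (52 UMIs) did not pass in the unblocked test. Elovl1, Elovl7 and Hacd4 had 78, 15 and 11 UMIs and were too low to test, and Elovl3 and Tecrl had none, which allows up to 0.297 CPM over all cells (3 counts).

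**Figure D5:**
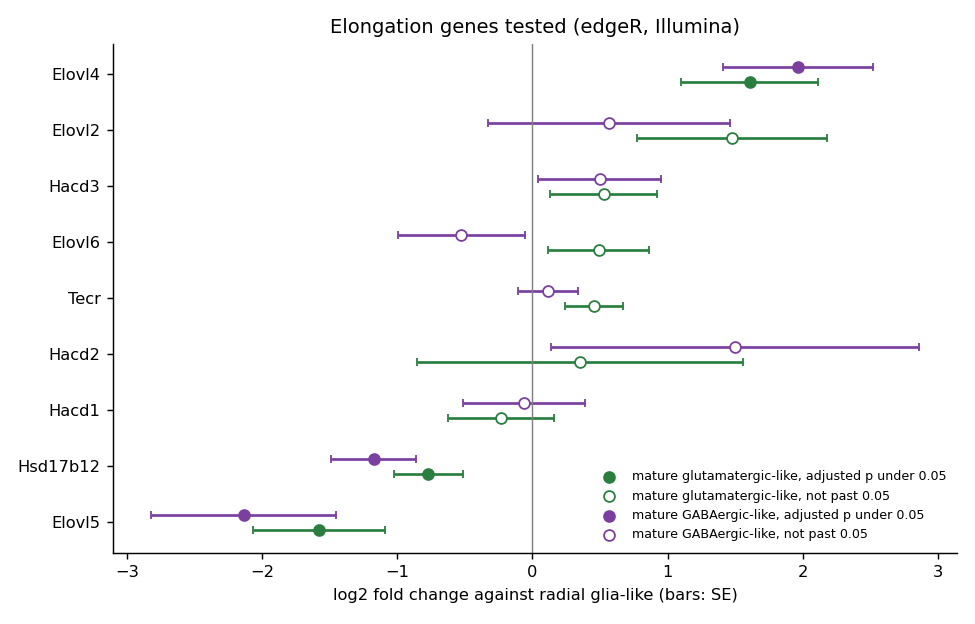
Log2 fold change against radial glia-like cells (x axis, bars show SE) of the 9 elongation genes tested with edgeR, for mature glutamatergic-like and mature GABAergic-like neurons. Filled points are past an adjusted p of 0.05. Elovl4 lies above 0 in both classes (1.61 and 1.96), and Hsd17b12 and Elovl5 below 0 (-0.77 to -2.14).

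Of the 50 lipid list genes tested, elongation included, 20 (40%) were called in mature glutamatergic-like against radial glia-like cells, beside 33% of all genes, and DESeq2 also called 9 of them. Of the 20, 5 were higher and 15 lower in the neurons, whereas over all genes 1422 were higher and 1423 lower. No test was made of these lists against other genes. The peroxisomal oxidation list, which shortens very long chains, had 3 lower, 0 higher and 5 not past the threshold (median log2 fold change -0.85, against -0.0044 over all genes). Scp2, which carries a peroxisomal thiolase, went from 222 and 214 to 95.8 and 73.2 CPM (-1.35, SE 0.22, edgeR adjusted p = 2.47e-06), and Abcd3, an acyl-CoA transporter, and Hsd17b4, the bifunctional enzyme, fell as well (-1.40 and -1.27). Among the 12 genes of acyl-CoA activation and binding 2 were higher and 4 lower (median -0.15). Dbi, the acyl-CoA binding protein, had 6268 and 8447 CPM in radial glia-like cells against 238 and 192 (-5.06, SE 0.21, edgeR adjusted p = 2.64e-18). The fatty acid transporter Slc27a1 fell (-2.70) and the fatty acid binding proteins Fabp5 and Fabp3 rose (1.00 and 3.93). Fabp7 (-6.80) also marks the radial glia-like class by name, so it is no independent result. Of 14 genes of ceramide and sphingolipid synthesis 2 were higher and 4 lower (median -0.51). These were the ceramide synthase Cers6 (1.93), the glucosylceramide synthase Ugcg (1.96), the ceramide synthase Cers2 (-1.19), Sptssa, a subunit of serine palmitoyltransferase (-1.24), and its regulators Ormdl1 (-1.30) and Ormdl2 (-2.90). Both desaturases tested, Scd2 (-0.71) and Fads1 (-1.06), fell, and none of 5 fatty acid synthesis genes was called (1 higher and 1 lower at an unadjusted p under 0.05). The calls of Scp2, Dbi, Fabp3, Fabp5, Fabp7, Sptssa and Ormdl2 held in every alternative. Without the 951-cell sum of radial glia-like cells 10 calls outside the members were lost (Abcd3, Cers2, Cers6, Elovl4, Fads1, Hsd17b4, Ormdl1, Scd2, Slc27a1 and Ugcg, edgeR adjusted p from 0.065 to 0.652). Leaving out 1 of the other sums took 3 to 5 of these calls (edgeR adjusted p from 0.052 to 0.32). Without the barcodes shared by the aliquots Ugcg and Fads1 were no longer called (edgeR adjusted p = 0.0545 and 0.0802).

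In mature GABAergic-like neurons 17 of the 50 list genes were called (34%), which is near the 30.3% of all genes, 8 of them by DESeq2 too. Of the 17, 4 were higher and 13 lower, and over all genes 1232 were higher and 1384 lower. The peroxisomal list again had 3 lower and 0 higher of 8 (median -0.69, against -0.0198 over all genes), namely Hsd17b4 (-1.59), Abcd3 (-1.40) and Scp2 (-1.17). Of the acyl-CoA list 1 gene was higher, Fabp3 (1.85), and 4 were lower, Dbi (-6.22), Slc27a1 (-2.96) and the class marker Fabp7 (-6.75) among them. Cers6 (2.20) and Ugcg (2.94) were higher, and Sptssa (-1.11) and Ormdl2 (-3.92) lower, of the 14 sphingolipid genes. Scd2 fell (-1.70), as did Mecr, a mitochondrial enoyl reductase (-1.72). The calls of Dbi, Fabp7, Hsd17b4, Ormdl2, Scd2 and Sptssa held in every alternative. Without the 951-cell sum of mature GABAergic-like neurons 7 calls were lost (Abcd3, Cers6, Fabp3, Mecr, Scp2, Slc27a1 and Ugcg, edgeR adjusted p from 0.0638 to 0.369), as were 7 without the 951-cell sum of radial glia-like cells (edgeR adjusted p from 0.11 to 0.781) and Fabp3 and Mecr without the 190-cell sum of mature GABAergic-like neurons (0.0513 and 0.0638).

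In the other comparisons few list genes were called. Fasn, the cytosolic fatty acid synthase, rose from 26.3 and 29.4 to 90.3 and 68.4 CPM in mature against immature glutamatergic-like neurons (log2 fold change 1.48, SE 0.35, edgeR adjusted p = 0.00596), and Fabp7 fell (-1.03). Neither call held without the 951-cell sum of immature glutamatergic-like neurons (edgeR adjusted p = 0.2 and 0.0608), and that of Fasn did not hold under DESeq2 (adjusted p = 0.252). In mature against immature GABAergic-like neurons Cers4 rose (1.37) and Scd2 (-1.07) and Dbi (-1.35) fell, the last without a call when the aliquot was a block (edgeR adjusted p = 0.148), and the other two neither under DESeq2 (adjusted p = 0.257 and 0.272) nor without the 190-cell sum of immature GABAergic-like neurons (edgeR adjusted p = 0.0694 and 0.224). Scd2 was also not called without the barcodes shared by the aliquots (edgeR adjusted p = 0.0989). Between the mature classes Dbi (-1.17, with the block edgeR adjusted p = 0.0669), Fabp3 (-2.07), Fabp5 (-0.86) and Scd2 (-0.99) were lower and Ormdl1 (1.58) higher in GABAergic-like neurons, and the call of Fabp5 alone held in every alternative.

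The other members showed little isoform diversity. All 87 Nanopore UMIs of Elovl5 and all 192 of Hacd3 were assigned to 1 isoform each, Elovl5-201 and Hacd3-201. Hsd17b12 had 609, of which 527 were the coding Hsd17b12-201 and 80 (13.1%) Hsd17b12-203, a noncoding transcript of 3 exons whose last exon runs 417 bases past the 76-base exon it shares with Hsd17b12-201. Its share was 13.4% and 13.1% in the 2 aliquots. In Cajal-Retzius-like cells 0 of 10 UMIs were of this isoform (0 to 30.9). In the other named classes its share ran from 6.45% of 124 UMIs in radial glia-like cells (2.83 to 12.3) over 11.7% of 197 in mature glutamatergic-like neurons (7.55 to 17.0) to 26.3% of 38 in immature GABAergic-like neurons (13.4 to 43.1). The intervals of radial glia-like cells and immature GABAergic-like neurons did not meet, but the 190-cell aliquot had just 2 Hsd17b12 UMIs in immature GABAergic-like neurons. None of the 3 genes had a pair of isoforms past the filter, so their isoform usage was not tested. Over the genes that could be tested 15.8% and 13.9% were called, and of the lipid lists apart from Tecr just Acbd6 and Dbi entered, without a call (edgeR adjusted p from 0.444 to 0.858).

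The sequencing platforms captured the members unequally. Summed over cells, Nanopore held 554 and 2818 Tecr UMIs against 698 and 3309 in Illumina, and 97 and 512 Hsd17b12 UMIs against 153 and 710. Relative to all genes Tecr was thereby higher in Nanopore (log2 fold change 0.66, SE 0.09, edgeR adjusted p = 0.00245), in a comparison where 50.5% of 9855 genes were called and 20.2% were called higher in Nanopore. Hsd17b12 was higher by 0.39 (SE 0.11, edgeR adjusted p = 0.033), but not by DESeq2 (adjusted p = 0.157) nor without either Illumina library or without the 951-cell Nanopore library (adjusted p from 0.115 to 0.241). Hacd3 (31 and 161 against 66 and 306 UMIs) and Elovl5 (16 and 71 against 34 and 133) gave -0.04 each. Both platforms read the same droplets. With the aliquot as a block the edgeR adjusted p was 9.37e-07 for Tecr and 6.61e-05 for Hsd17b12, while Hacd3 and Elovl5 stayed without a call (0.863 and 0.957). A UMI entered the Nanopore tables only when its exon structure matched an annotated isoform.

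Across the 14 sums of 7 classes in 2 aliquots, the genes whose log2 level was most like that of Tecr were Pebp1 (Pearson r = 0.918), Abhd12 (0.898) and Ormdl3 (0.876). For Hsd17b12 they were Lman1 (0.919), Tst (0.873) and Hagh (0.872), for Hacd3 Mfn2 (0.834), Cdk10 (0.832) and Npas4 (0.827), and for Elovl5 Blzf1 (0.788), Tln2 (0.780) and Mif4gd (0.778). Among the members Tecr and Hacd3 were most alike (0.709), followed by Hsd17b12 and Elovl5 (0.478) and Tecr and Hsd17b12 (0.371). The other pairs were negative: Hsd17b12 and Hacd3 (-0.113), Tecr and Elovl5 (-0.131) and Hacd3 and Elovl5 (-0.339). By likeness to Tecr, Hacd3 ranked 143 and Hsd17b12 1739 among the genes past the filter. The sums share libraries and differ in depth, and these values are descriptions.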

How the data were processed

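The authors sequenced 10x v2 cDNA of 2 aliquots on both platforms. The deposited Illumina UMI counts per gene were made with Cell Ranger 2.0 on mm10. For the deposited Nanopore UMI counts per isoform the authors mapped reads with minimap2, assigned cell barcodes and UMIs with the help of the short reads, built a consensus per UMI and matched it to Gencode isoforms. UMIs that match no annotated isoform are not in these counts, which limits the isoform levels. Here cells with at least 1400 genes were kept and clustered (Seurat 5.3.0, without lipid list genes). A cluster took a class when at least 3 of its markers were raised by 0.5 (log2) in at least 10% of cells, leading the next class by 0.2, and its 10 leading genes held no more markers of another class. Cells with 3 microglia markers (3 cells) took no class. Scrublet called 3 and 4 doublets, which stayed in except in an alternative. In the larger aliquot the caller marked 0.428% of cells, too few to judge doublets from.

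Counts were summed per class and aliquot, scaled to CPM for display, and tested with edgeR 4.0.16 (TMM, filterByExpr, quasi-likelihood, Benjamini-Hochberg over all genes, threshold 0.05), with all 7 classes of at least 5 cells per aliquot in 1 fit. The alternative test was DESeq2 1.42.0. Isoform usage was tested with diffSpliceDGE. Exon coordinates and sequences came from Gencode vM21 (GRCm38). The scripts were tested on simulated data. The aliquot number pairs the samples, as each aliquot is 1 library: deviations from class means correlated with r from 0.142 to 0.318 over 21 pairs of classes in the Illumina sums and from 0.0253 to 0.136 in the Nanopore sums. Between the platforms the difference of the aliquots correlated with r = 0.599. UMIs per cell had medians of 8048.5 and 7551 (Illumina) and 4394 and 4487 (Nanopore). The tested sums of the 190-cell aliquot held as few as 96440 Illumina UMIs, so a gene at 10 CPM had about 1 UMI there. The untested Cajal-Retzius-like sum of that aliquot held 42285.

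Members and lists were chosen with earlier results of these data known. Named genes were the members, isoforms with at least 5% of a member's UMIs, list genes past the threshold with at least 100 UMIs and 1 direction in both aliquots, and the 3 genes most correlated with each member. The rule for microglia-marked cells and the alternatives without shared barcodes, without cells of other types and with the unnamed cluster counted as immature glutamatergic-like were chosen after seeing the data.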

Additional observations from a re-analysis of the deposited data

Results flagged for a closer look

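For Dbi, the acyl-CoA binding protein, the log2 fold change of mature over immature neurons was 1.47 higher in glutamatergic-like than in GABAergic-like cells (SE 0.30, edgeR adjusted p = 0.00423 for the difference itself). Dbi had 328 and 183 CPM in immature and 93.3 and 105 CPM in mature GABAergic-like neurons (log2 fold change -1.35). In glutamatergic-like neurons it had 223 and 197 CPM in the immature and 238 and 192 CPM in the mature class (0.12, edgeR adjusted p = 0.898). The GABAergic-like classes were led by different genes, as given above, and the part of cell type in this difference was not tested. The call was lost with the aliquot as a block (1.27, edgeR adjusted p = 0.202) and with a finer clustering (1.25, edgeR adjusted p = 0.0871). With DESeq2 the adjusted p was 0.0462, and over the settings run the adjusted p lay between 0.000192 and 0.202.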

How the results depend on the processing

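The smaller aliquot contributed 13 radial glia-like cells and 17 mature GABAergic-like neurons, and Elovl5 rested on 3 to 41 UMIs per class and aliquot in the tested neurons. The aliquots are libraries of 1 emulsion from 1 animal, so no spread between animals is covered. The Tecr exon share of Cajal-Retzius-like cells rested on 18 and 33 UMIs. TMM and RLE scaling shifted the median of all genes by at most 0.064 (log2).

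With DESeq2 the genes called numbered 1527 (mature glutamatergic-like against radial glia-like), 1432 (mature GABAergic-like against radial glia-like), 101 and 78 (maturation in each lineage), 302 (between mature classes), 64 (difference of maturation) and 3071 (platforms), with 0 and 0 elongation genes in the first and second. With the replicate block they numbered 962, 499, 1226 and 486 in the third to sixth comparisons. Elongation genes called in the first rose from 3 to 5 with the block, with no filter on low counts, and with no gene minimum. Isoform usage calls rose to 188 without the filter. Beyond the calls named in the report, the block changed none of the members. Without a gene minimum the immature GABAergic-like and intermediate progenitor-like clusters stayed unnamed, so no comparison of immature GABAergic-like neurons was possible. Among the 10 leading genes of the first, 3 were its own markers and 5 were erythroid markers. The second had a mean log2 fold of 1.365, against 1.327 for the immature glutamatergic markers, short of the lead of 0.2. Radial glia-like and mature GABAergic-like cells then numbered 106 and 174 in place of 69 and 141. For the changes in the number of calls the cause was not tested.

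The Tecr exon share was 71.4% in cycling radial glia-like cells and 34.7% in mature GABAergic-like neurons without shared barcodes, 33.5% and 36.0% in mature glutamatergic-like and mature GABAergic-like neurons with finer clustering, and 86.1% of cells with at least 5 Tecr UMIs held both isoforms. With 1 aliquot left out it ranged over 82.1 to 85.3% (radial glia-like), 71.4 to 71.7% (cycling), 64.0 to 71.0% (intermediate progenitor-like), 53.2 to 55.1% (immature glutamatergic-like), 38.0 to 39.6% (mature glutamatergic-like), 41.5 to 43.6% (immature GABAergic-like), 34.3 to 34.6% (mature GABAergic-like), 38.9 to 39.4% (Cajal-Retzius-like), 44.9 to 56.9% (unnamed) and 50.1 to 50.8% (all cells).

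Leaving out 1 sum gave 1461 to 2710, 1167 to 2491, 99 to 262, 81 to 202, 306 to 628 and 71 to 189 genes called in the 6 class comparisons. Elongation genes called then numbered 0 to 5, 1 to 3, 0 to 0, 0 to 0, 0 to 1 and 0 to 0. Isoform usage calls ran from 41 to 126 and from 32 to 100, and platform calls from 3697 to 5298.

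The member values that changed sign had passed no threshold. With finer clustering Hsd17b12 and Elovl5 were -0.25 and 0.56 in GABAergic maturation, and Hsd17b12 was 0.41 in the difference of maturation. That clustering held 125 immature GABAergic-like cells in place of 176. A cluster of 81 cells led by Htr3a and Cxcl14 was then named mature GABAergic-like. The Dbi value and the Tecr exon share at this setting rest on the same regrouped classes. The part of the regrouping in these values was not tested. Hacd3 was 0.0399 between mature classes with the block, and in the difference of maturation -0.15 with the block and -0.0648 with the unnamed cluster counted as immature glutamatergic-like. With 1 sum left out, mature GABAergic-like against radial glia-like ran from -0.51 to 0.43 (Tecr) and -0.28 to 1.44 (Hacd3). GABAergic maturation ran from -0.51 to 0.36 (Tecr), -0.0467 to 1.202 (Hsd17b12), -0.43 to 0.72 (Hacd3) and -0.96 to 1.40 (Elovl5). Between mature classes the ranges were -0.84 to 0.13 (Hacd3) and -1.41 to 0.89 (Elovl5). The difference of maturation ran from -0.0256 to 0.90 (Tecr), -1.05 to 0.20 (Hsd17b12), -0.28 to 1.04 (Hacd3) and -2.12 to 0.24 (Elovl5), and platforms from -0.16 to 0.0424 (Hacd3) and -0.21 to 0.0103 (Elovl5).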
